A study of Bos grunniens and Bos grunniens x Bos taurus with 12 samples.

Results

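Ribosome footprints of the testis of the cattle–yak, the sterile male hybrid of cattle and yak, were compared with those of the testis of the yak at 6 months of age. Ribo-seq sequences the mRNA fragments that ribosomes shield from nuclease digestion, so a level here is the amount of footprint on a gene, the product of how much mRNA there is and how densely ribosomes occupy it. The series holds 12 libraries in 4 groups of 3 animals, 1 library per animal: yak of 6 months, 18 months and 4 years, and cattle–yak, to which the labels give 4 years. The 6 libraries of the youngest yak and the cattle–yak form the comparison, chosen by their labels, and all 20965 genes of the deposited tables entered it. The yak of 6 months are called juvenile in the labels, while both the cattle–yak and the oldest yak are called sexually mature. The cattle–yak came from Jersey bulls and Gannan yak cows. No group received a treatment. According to the labels all animals belonged to the same cooperative and were castrated to obtain tissue, whereas the methods of the study state euthanasia for the adult yak. The hybrid differs from the juvenile yak in age as well as in genotype, and the 2 differences cannot be told apart in this comparison. The values of yak of 4 years are therefore given beside many results. Both comparisons share the cattle–yak libraries, and the comparison of the 2 yak ages shares its libraries with both.

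In the mammalian testis, spermatogonia lie on the basement membrane of the seminiferous tubule, enter meiosis at puberty and become spermatids that build the acrosome and the tail of the sperm. Sertoli cells nourish them and, on maturing, stop dividing and close the blood–testis barrier. Leydig cells between the tubules make testosterone, and peritubular myoid cells surround and contract the tubule. Male cattle–yak are sterile and their seminiferous tubules are known for germ cells that stop in or before meiosis.

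Total counts were 25816963 to 37167651 in the yak of 6 months and 38437889 to 52616039 in the cattle–yak. Pearson's correlation of log2 levels across genes was 0.982 to 0.990 between libraries of the juvenile yak, 0.989 to 0.991 between those of the cattle–yak and 0.885 to 0.918 between the groups. The 10 genes with most counts took 20.7% to 22.5% of a juvenile library and 7.09% to 7.51% of a cattle–yak library. Levels below are counts scaled to a common library total after TMM normalisation over the 12 libraries (normalised CPM), always given in the order of replicates 1, 2 and 3. Yak of 18 months enter no comparison between groups, but they share the TMM scaling, the fit of all 12 libraries and the range of yak levels. Their replicate 2 stood apart from the others in germ cell genes, at 3819 normalised CPM summed over the round spermatid list against 148 and 126. SOX9 of Sertoli cells, STAR of Leydig cells and UCHL1 of spermatogonia had footprints in every library of both groups. A bulk level cannot separate fewer cells of a type from less footprint per cell.

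Of 15571 genes with enough counts to be tested, 2823 were higher and 3067 lower in cattle–yak (edgeR's quasi-likelihood test; a gene was called when its adjusted p was under 0.05 and its level changed 2-fold or more). That is a background of 18.1% of tested genes higher and 19.7% lower, against which each list below is read. Levels of the 2 groups did not overlap in 34.5% of tested genes with cattle–yak above, and in 32.6% with cattle–yak below. A lack of overlap in a single gene is therefore common here. Scaling by library size alone gave 4867 higher and 1875 lower genes, and moved the median log2 fold change of all genes from -0.02 to 0.52. The share of called genes that were higher was 47.9% with TMM and 72.2% with library size. Directions below refer to TMM, and counts that library size scaling changed by more than 1.5 times are given with them. The same libraries gave 17.1% higher and 27.0% lower when cattle–yak was compared with yak of 4 years, and yak of 4 years had 31.0% of genes higher and 24.7% lower than yak of 6 months.

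**Figure D1:**
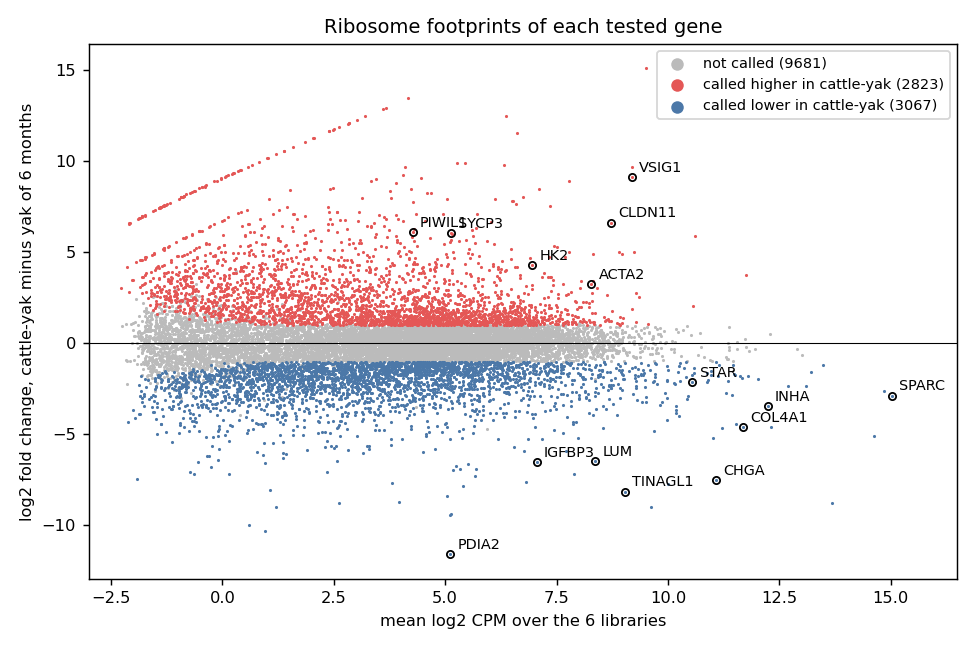
Each point is 1 of 15571 tested genes, with its mean log2 CPM over the 6 libraries on the x axis and its log2 fold change, cattle–yak minus yak of 6 months, on the y axis. The 2823 genes called higher are red, the 3067 called lower are blue, and 15 genes described in the text are circled, from VSIG1 at 9.13 to PDIA2 at a fitted value of -11.59.

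The largest increases among abundant genes with a symbol were in genes that had few footprints in the juvenile. CNNM1, a membrane protein of the cyclin M family, had 0, 5 and 1 counts in yak of 6 months and 4255, 3088 and 4453 in cattle–yak. SEPTIN14, a testis septin, had 3, 6 and 5 counts against 13164, 4967 and 7490, and DLK2, a non-canonical Notch ligand, had 1, 1 and 1 against 2024, 1312 and 1901. A lack of overlap between the groups was a condition for naming these genes, so it adds nothing to their increase. VSIG1, an immunoglobulin-domain adhesion protein, was also among the most abundant higher genes, at 2.55, 1.21 and 2.98 normalised CPM in the juvenile and at 1449.7, 1024 and 1304 in the hybrid (log2 fold change 9.13 ± 0.40 (SE), adjusted p = 3.29e-06). In yak of 4 years it was at 673, 1007 and 611, which did not differ from cattle–yak by the call rule. MAGEA10, a cancer-testis antigen gene of a family with similar copies, which makes its counts uncertain, was at 0.555, 0.686 and 1.19 in the juvenile and 324, 279.8 and 281 in cattle–yak, and the adult yak lay between them at 80.8, 68 and 72.7. The bicarbonate transporter gene SLC4A5 had a log2 fold change of 8.25 and the lectin receptor gene CLEC12B one of 8.05. The most abundant higher genes beside VSIG1 had smaller changes from a higher level. BUD23, an rRNA methyltransferase of the small ribosomal subunit, was at 586, 731 and 591 in the juvenile and 2421, 3019.9 and 2447 in the hybrid. The RNA helicase gene DDX5 and UTP6, a factor of small subunit assembly, had log2 fold changes of 1.19 and 1.90.

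At the other end, the protein disulfide isomerase gene PDIA2 had 2026, 2157 and 989 counts in yak of 6 months and 1, 2 and 0 in cattle–yak. TINAGL1, a secreted protein of basement membranes, was at 1616, 879 and 844 normalised CPM in the juvenile and 3.61, 3.92 and 4.31 in the hybrid (log2 fold change -8.16 ± 0.35 (SE), adjusted p = 3.06e-06). CHGA, which encodes the granule protein chromogranin A, was abundant in the juvenile at 7177, 3586 and 2967 and was at 29.9, 19.4 and 27.1 in cattle–yak (-7.50 ± 0.45 (SE), adjusted p = 1.08e-05). Yak of 4 years were at 1.71, 3.59 and 3.42 for TINAGL1 and 19.5, 24.4 and 14 for CHGA, and neither was called between them and cattle–yak. Further large decreases were those of the transglutaminase gene TGM1 (-9.45), the phosphate transporter gene SLC34A2 (-9.37), LAMP5 (-8.73), COL9A2 (-8.40) and the carnitine transporter gene SLC22A16 (-7.85) on the log2 scale. TGM1 varied within the juvenile, at 12.6, 82.2 and 126, with replicate 1 well below the others. These largest decreases were picked only among genes whose groups did not overlap. APOA1, the apolipoprotein of HDL, was at 20618, 14494 and 12199 in the juvenile and 2827, 3466 and 2974 in cattle–yak. The groups did not overlap, as in 32.6% of tested genes with cattle–yak below.

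**Figure D2:**
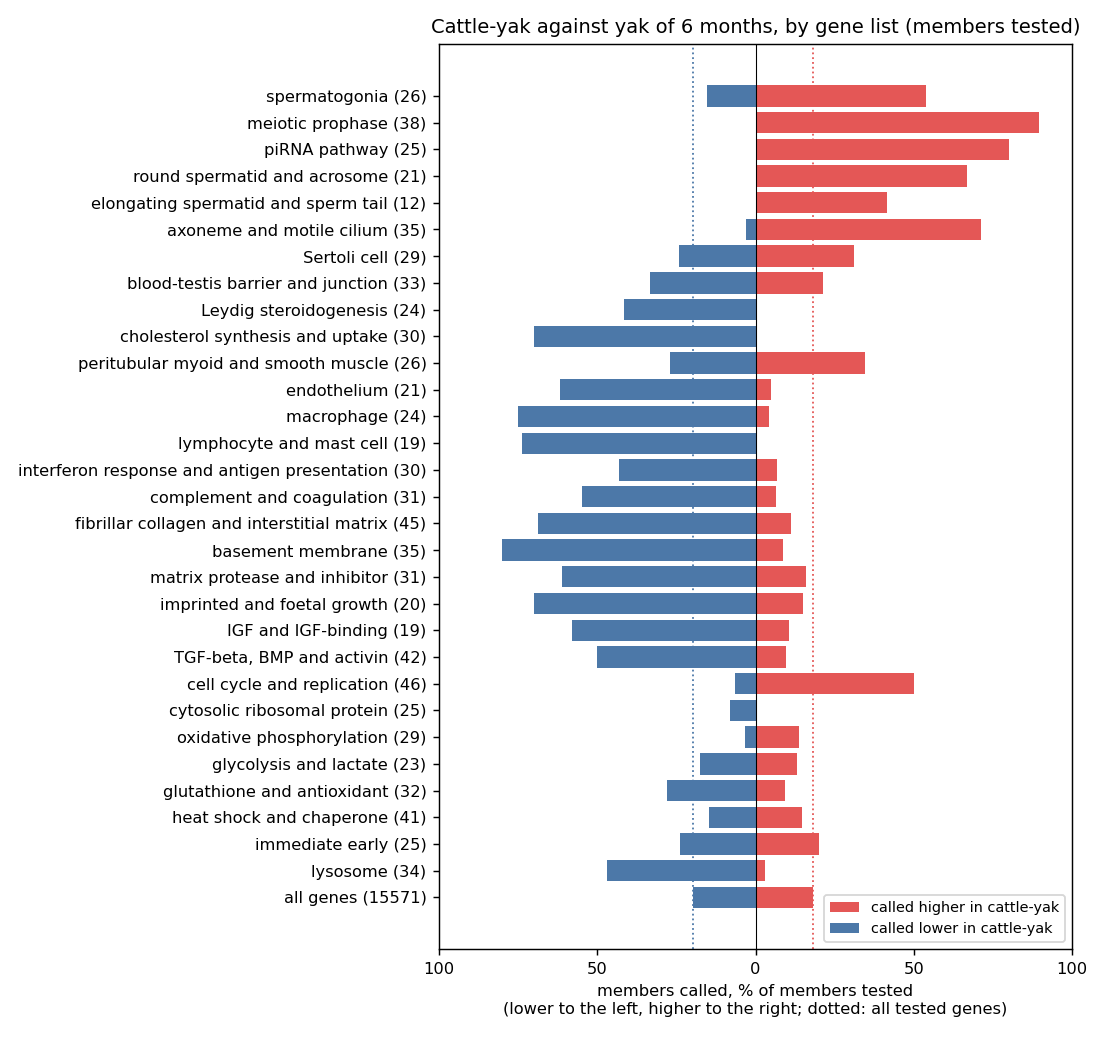
For 30 gene lists, the bars give the share of tested members called higher (red, to the right) and lower (blue, to the left) in cattle–yak against yak of 6 months, with the number tested in parentheses and the share over all tested genes as dotted lines. Germ cell lists extend to the right, with 34 of 38 meiotic prophase genes higher, while basement membrane, collagen, cholesterol and immune lists extend to the left, with 28 of 35 basement membrane genes lower.

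Germ cell genes up to meiosis were mostly higher in cattle–yak than in yak of 6 months, and genes of spermatids were at low levels in both. Of 30 matched spermatogonial genes 26 were tested, and 14 were higher and 4 lower, and their median log2 fold change was 1.69 against -0.02 over all genes. ZBTB16, a zinc finger repressor of undifferentiated spermatogonia, was at 10.2, 9.64 and 8.66 normalised CPM in the juvenile, 34.6, 50.0 and 46.9 in cattle–yak and 14.6, 14.5 and 17.2 in adult yak. Its log2 fold change was 2.19 ± 0.18 (SE), adjusted p = 3.93e-05, and cattle–yak was also above the adult yak (1.49, adjusted p = 0.000104). ID4, an inhibitor of basic helix-loop-helix factors that marks spermatogonial stem cells, was at 4.16, 4.51 and 2.66 in the juvenile and at 99.9, 99 and 95.7 in cattle–yak (4.68 ± 0.21 (SE), adjusted p = 3.48e-06). Every cattle–yak library was above every one of the 9 yak libraries for ID4, the highest of which was at 36.1. UCHL1, a deubiquitinase used to stain spermatogonia, was at 222, 251 and 159.8 in the juvenile and 541, 501 and 426 in cattle–yak (1.198 ± 0.20 (SE), adjusted p = 0.00115), with no overlap. Some members were lower. ITGA6, an integrin chain that spermatogonia share with other cells on the basement membrane, fell from 809, 451 and 471 to 72.4, 60.012 and 72.9 (-3.09 ± 0.25 (SE), adjusted p = 4.01e-05), and GFRA1, the receptor for GDNF, THY1 and TSPAN33 were the other lower members.

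Meiotic prophase genes formed the list with the highest share called higher among those with 20 or more tested members. Of 38 genes 34 were higher and none lower (median log2 fold change 3.26), and HORMAD1, MLH3 and TEX15 were among the 4 not called. SYCP3, a lateral element of the synaptonemal complex that holds paired chromosomes together, was at 0.499, 1.67 and 0.993 normalised CPM in yak of 6 months, 97.9, 51.4 and 73.9 in cattle–yak and 53.1, 38.1 and 45.2 in yak of 4 years. Its log2 fold change was 6.05 ± 0.41 (SE), adjusted p = 1.86e-05, and the difference between cattle–yak and the adult yak was under 2-fold (0.70, adjusted p = 0.0303), though only cattle–yak replicate 2 lay within the adult range. SYCP1, the transverse filament of that complex, was at 1.22, 5.68 and 2.18 in the juvenile and 77.4, 28.1 and 48.3 in cattle–yak (4.01 ± 0.58 (SE), adjusted p = 0.000581). SYCP2, a partner of SYCP3, had a log2 fold change of 6.70 against the juvenile and -1.29 against the adult. The cohesin subunits STAG3 and SMC1B, which hold sister chromatids in meiosis, were both higher, STAG3 at 3.33, 3.99 and 1.51 in the juvenile and 127, 79 and 77.8 in cattle–yak, and SMC1B at 2.28, 8.79 and 3.65 and then 163, 77.3 and 86.3. For STAG3 and SMC1B the 3 groups did not overlap, with cattle–yak between the juvenile and the adult yak, where STAG3 was at 214, 246 and 227 and SMC1B at 257, 248 and 314. MEIOB, which stabilises recombination intermediates, rose by 5.84 on the log2 scale and MEI1, needed for double-strand breaks, by 3.48. Summed over the matched members, the list was at 407 to 462 in the juvenile, 1235 to 2034 in cattle–yak and 2995 to 3253 in the adult. HORMAD1, which was not called, made up a large part of the juvenile sum. Before scaling it had 3111, 5036 and 5550 counts in the juvenile and 9611, 7077 and 6440 in cattle–yak. Against yak of 4 years, 1 meiotic gene was higher and 20 were lower in cattle–yak, with a median of -1.14.

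The piRNA pathway, which silences transposons in germ cells through PIWI proteins, had 20 of 25 tested members higher and none lower, with a median of 2.59. PIWIL1, the PIWI protein of pachytene spermatocytes and round spermatids, was at 0.999, 0.686 and 0.119 normalised CPM in the juvenile and 74.5, 29.7 and 17.3 in cattle–yak (6.11 ± 0.75 (SE), adjusted p = 0.000266). The cattle–yak libraries spread widely for this gene, and all of them were far below yak of 4 years at 760.1, 669.7 and 809 (log2 fold change -4.20, adjusted p = 0.000185). PIWIL2, which acts earlier, was at 18.1, 16.8 and 6.04 in the juvenile, 80.1, 70.9 and 73.3 in cattle–yak and 96.4, 103 and 106 in the adult, and its difference from the adult was under 2-fold (-0.46, adjusted p = 0.0083). The tudor helicase gene TDRD9 rose by 3.32 on the log2 scale against the juvenile and had a log2 fold change of -2.24 against the adult. Over the list, cattle–yak had 18 members lower than yak of 4 years and none higher.

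Spermatid genes had low summed levels in both groups. Of 37 matched genes of the round spermatid and acrosome, only 21 had enough counts to be tested, and 14 of these were higher and none lower. Because low members could pass the filter only where 1 group was high, these counts are read beside the levels over all matched members. Summed over the 37 members, the list was at 116 to 128 normalised CPM in yak of 6 months, 135 to 172 in cattle–yak and 6344 to 7708 in yak of 4 years. ACR, the acrosomal protease acrosin, had 1, 0 and 0 counts in the juvenile and 73, 22 and 11 in cattle–yak. DPY19L2, which anchors the acrosome to the nucleus, was at 0.444, 0.327 and 0.159 normalised CPM against 13.7, 7.77 and 3.47 (4.75 ± 0.62 (SE), adjusted p = 0.000358), and the adult yak was at 581, 476 and 803. SPATA16, a Golgi protein of acrosome formation, was at 0.222, 0.359 and 0.0794 in the juvenile, 1.57, 1.55 and 0.653 in cattle–yak and 72.7, 67.7 and 67.5 in the adult. When all 12 libraries shared 1 fit, ACR, DPY19L2 and SPATA16 were no longer called against the juvenile. SUN5, which couples the sperm head to the tail, had no count in any juvenile library and 20, 2 and 0 counts in cattle–yak, against 2333, 3133 and 1413 in the adult.

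Elongating spermatid and tail genes gave the same order of groups. Of 33 matched genes 12 were tested, 5 of them higher and none lower, and the sum was 51.1 to 65.7 in the juvenile, 181 to 329 in cattle–yak and 8179.6 to 10695 in the adult. The limit that the filter sets on counts of round spermatid genes holds for these counts too. Most of the cattle–yak sum came from ODF2, an outer dense fibre protein that centrosomes also carry, at 27.6, 43.2 and 42.4 in the juvenile and 268, 151 and 162 in cattle–yak (2.34 ± 0.27 (SE), adjusted p = 0.000216), a call that was lost when all 12 libraries shared 1 fit. TNP1, a transition protein that replaces histones in spermatids, had 1, 0 and 4 counts in the juvenile, 244, 22 and 0 in cattle–yak and 34429, 24607 and 32613 in the adult. GAPDHS, the glycolytic enzyme of the sperm tail, was at 1.17, 1.6 and 0.794 normalised CPM in the juvenile, 1.63, 1.51 and 1.26 in cattle–yak and 614, 606 and 557 in the adult, and it was not called between cattle–yak and the juvenile (0.28 ± 0.40 (SE), adjusted p = 0.572). KLHL10, a spermatid ubiquitin ligase adaptor, had no count in the juvenile libraries and 41, 3 and 4 counts in cattle–yak. In the comparison with yak of 4 years, 36 of 37 tested spermatid and acrosome genes and 33 of 33 elongating spermatid genes were lower in cattle–yak, against 27.0% of all tested genes. Members low in cattle–yak could pass that filter only where the adult yak was high. These counts are therefore read beside the summed levels.

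**Figure D3:**
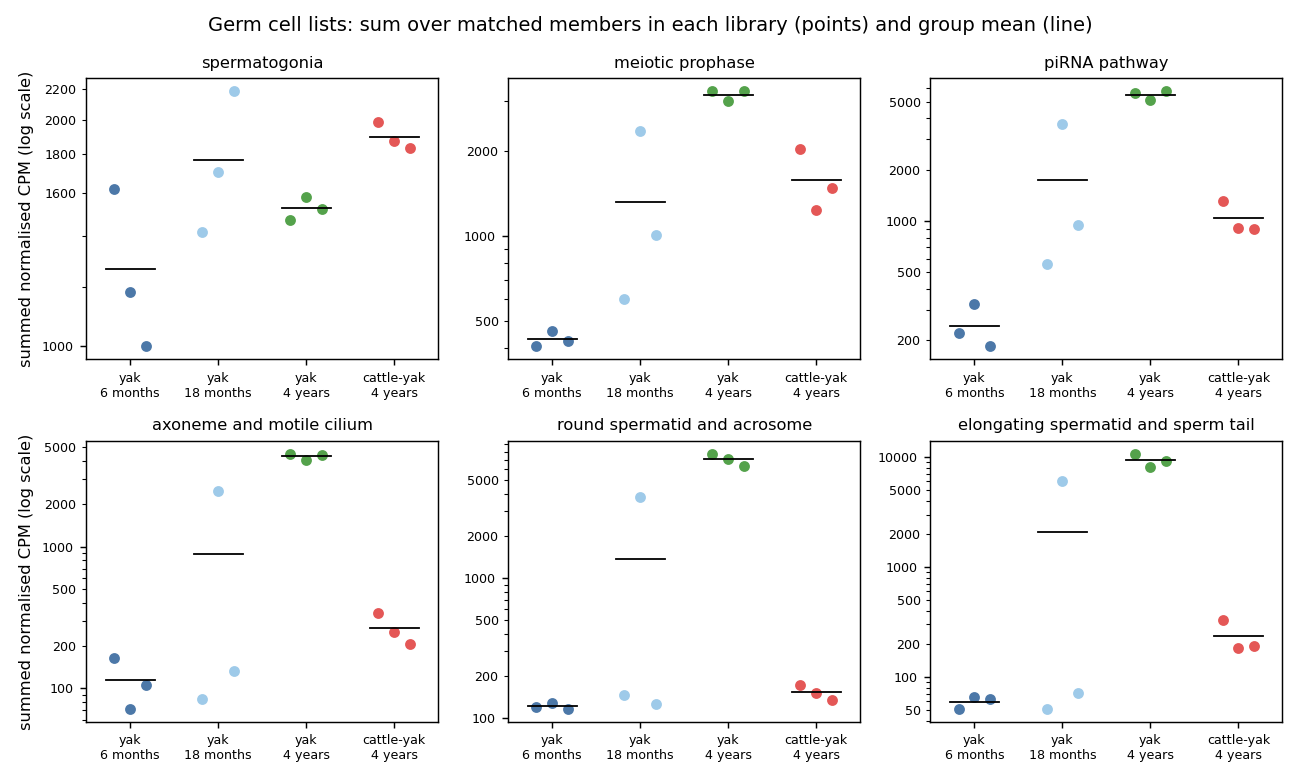
Summed normalised CPM (log scale) of the matched members of 6 germ cell lists in each of the 12 libraries, with points for libraries and a line for the group mean. Cattle–yak lies clearly above yak of 6 months for meiotic and piRNA genes, at 1235 to 2034 against 407 to 462 for meiotic prophase, and close to it for round spermatid genes, at 135 to 172 against 116 to 128, with yak of 4 years at 6344 to 7708.

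Axoneme genes encode the dyneins, radial spokes and assembly factors of motile cilia and flagella. Of 38 matched members 35 were tested, and 25 were higher and 1 lower in cattle–yak, with a median of 2.34. Low members could pass the filter only where 1 group was high, so these counts are read beside the summed levels. The sum was 71.7 to 165 normalised CPM in the juvenile, 207 to 338 in cattle–yak and 4088 to 4504 in the adult. DNAH11, an outer arm dynein chain, rose from 1.83, 2.42 and 2.46 normalised CPM to 48.4, 66.9 and 57.9 (4.66 ± 0.20 (SE), adjusted p = 3.32e-06), and the adult yak was at 40.6, 34.1 and 29.5. DNAH1, an inner arm chain, was at 0.388, 0.719 and 1.15 in the juvenile, 11.7, 5.75 and 2.87 in cattle–yak and 232, 198 and 228 in the adult, and its call was lost with all 12 libraries in 1 fit. DNAH10 was the lower member, at 99.6, 7.38 and 53.2 in the juvenile and 6.01, 4.59 and 5.18 in cattle–yak (-3.35 ± 0.76 (SE), adjusted p = 0.00567), and juvenile replicate 2 was far below replicates 1 and 3 for this gene. Against yak of 4 years 36 of 38 members were lower in cattle–yak and none higher, and the limit of the filter holds for these counts too.

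Sertoli cell genes moved in both directions. Of 29 tested genes 9 were higher and 7 lower, with a median of -0.05, and library size scaling gave 13 higher and 4 lower. CLDN11, the claudin of the blood–testis barrier, was at 8.66, 14.7 and 3.77 normalised CPM in the juvenile, 832, 954 and 932 in cattle–yak and 502, 749 and 401 in yak of 4 years (6.62 ± 0.49 (SE), adjusted p = 2.65e-05 against the juvenile). ESPN, the actin bundler of the ectoplasmic specialisation between Sertoli cells and spermatids, rose from 1.22, 1.11 and 0.635 to 477, 408 and 531 (8.89 ± 0.28 (SE), adjusted p = 1.27e-06). MRO, the testis gene maestro, rose from 0.943, 0.915 and 0.715 to 204, 168 and 208 (7.80 ± 0.20 (SE), adjusted p = 9.77e-07). The adult yak was at 473, 643 and 389.9 for ESPN and 132, 118 and 87.6 for MRO, and none of these genes differed between cattle–yak and adult yak by the call rule. AARD, one of the most abundant higher genes, and INHBB, the inhibin beta B chain, had log2 fold changes of 2.54 and 1.88. The lower members were INHA, INHBA, NCAM1, FSHR (the FSH receptor), SHBG, CTSL and TSPAN6. INHA, the inhibin alpha chain, was at 10559, 7866 and 9884 in the juvenile and 712, 946 and 942 in cattle–yak (-3.46 ± 0.24 (SE), adjusted p = 1.83e-05), with yak of 4 years at 505, 678 and 485. INHBA, the beta A chain of inhibin and activin A, fell from 638, 410.1 and 507 to 162, 127 and 131 (-1.90 ± 0.20 (SE), adjusted p = 0.000118), and the adhesion protein gene NCAM1 had a log2 fold change of -1.98. SOX9, the transcription factor that defines the cell type, did not pass the fold threshold, at 180.2, 255 and 235 in the juvenile and 335, 322 and 305 in cattle–yak (0.50 ± 0.16 (SE), adjusted p = 0.0291), although it was called higher with library size scaling. It was higher in cattle–yak than in the adult yak, which was at 68.3, 66.2 and 45.6.

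The list of barrier and junction genes had 7 of 33 tested members higher and 11 lower, and 12 higher and 6 lower with library size scaling, so its balance depended on the scaling. CLDN11 and ESPN were among the higher members. DSG2, a desmosomal cadherin, fell from 373, 188 and 239 normalised CPM in the juvenile to 8.06, 14 and 11.7 in cattle–yak (-4.59 ± 0.32 (SE), adjusted p = 2.13e-05). CXADR, a tight junction receptor, fell from 247, 167 and 163 to 11.6, 8.37 and 15.7 (-4.03 ± 0.28 (SE), adjusted p = 1.99e-05). Both were low in yak of 4 years too, at 4.55, 5.1 and 5.26 for DSG2 and 5.17, 5.19 and 11.5 for CXADR. TJP1, the scaffold ZO-1, was at 67.2, 145 and 133 in the juvenile and 208, 186 and 143 in cattle–yak and was not called (0.62 ± 0.29 (SE), adjusted p = 0.0971), except with library size scaling, where it was higher.

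Genes of steroid synthesis were lower or not called, and most genes of cholesterol synthesis were lower. None of 24 tested Leydig steroidogenesis genes was higher and 10 were lower, with a median of -0.68. With library size scaling 5 were higher and 8 lower. STAR, which carries cholesterol into the mitochondrion, was at 2077, 2867 and 2833 normalised CPM in yak of 6 months, 474, 854 and 485 in cattle–yak and 122, 45.3 and 149 in yak of 4 years. The log2 fold change was -2.12 ± 0.28 (SE), adjusted p = 0.00041 against the juvenile, while cattle–yak was above the adult yak (2.50, adjusted p = 0.00114). SCARB1, the HDL receptor, fell from 1359, 1149 and 835 to 189.6, 246 and 227 (-2.35 ± 0.22 (SE), adjusted p = 6.77e-05). HSD3B7, a dehydrogenase of bile acid synthesis, had a log2 fold change of -3.66, and CYP11A1, the side chain cleavage enzyme, LHCGR, the LH receptor, HSD3B1, FDXR, SRD5A1, CYP21A2 and HSD11B2 were also lower. INSL3 and TSPO, a Leydig hormone and a cholesterol-binding protein, were not called.

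Of 30 tested genes of cholesterol synthesis and uptake none was higher and 21 were lower, with a median of -1.29. Under library size scaling 8 were lower and 1 was higher. CYP51A1, the lanosterol demethylase, fell from 735, 425 and 290.3 to 85.5, 47.1 and 73.4 (-2.83 ± 0.37 (SE), adjusted p = 0.000345). The adult yak was at 300.0, 273 and 363, above cattle–yak (-2.19, adjusted p = 7.93e-05). DHCR7, the reductase of the last step to cholesterol, was at 130.5, 79.4 and 51.2 in the juvenile, 15.1, 12.8 and 20.3 in cattle–yak and 4.75, 6.36 and 5.83 in the adult (-2.45 ± 0.34 (SE), adjusted p = 0.000457 against the juvenile). It was instead higher in cattle–yak than in the adult yak (1.49, adjusted p = 0.000513). The summed list was at 6420.1 to 12002 in the juvenile, 2973 to 3383 in cattle–yak and 2303 to 2802 in the adult.

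Contractile genes of peritubular myoid cells and smooth muscle were found in both directions. Of 26 genes 9 were higher and 7 lower, and library size scaling left 11 higher and 1 lower. ACTA2, smooth muscle actin, was at 53.3, 69.7 and 66.5 normalised CPM in the juvenile, 603, 777 and 442 in cattle–yak and 100.5, 106 and 115 in yak of 4 years (3.25 ± 0.24 (SE), adjusted p = 2.82e-05). MYH11, the smooth muscle myosin heavy chain, rose from 40.9, 42.3 and 25.4 to 346, 395 and 253 (3.18 ± 0.26 (SE), adjusted p = 3.86e-05), and the tropomyosin gene TPM2 had a log2 fold change of 2.70. Against the adult yak the log2 fold changes of ACTA2, MYH11 and TPM2 were 2.49, 2.21 and 2.25, and all were called. The lower members included the adaptor protein gene PDLIM3, at 103, 133 and 145 in the juvenile and 50.6, 67.9 and 43.1 in cattle–yak (-1.26 ± 0.21 (SE), adjusted p = 0.00119). The call of PDLIM3 was lost with library size scaling and with all 12 libraries in 1 fit. Against yak of 4 years 21 of 26 members were higher and none lower.

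Most listed markers of vessels and immune cells were lower. Of 21 endothelial genes 13 were lower and 1, the nitric oxide synthase gene NOS3, was higher, with a median of -1.70 (2 higher with library size scaling). PECAM1, an adhesion protein between endothelial cells, was at 12.4, 8.1 and 11.3 normalised CPM in the juvenile and 2.74, 4.34 and 2.38 in cattle–yak (-1.76 ± 0.30 (SE), adjusted p = 0.0013), and ENG, a coreceptor for TGF-beta, fell from 123, 93.7 and 101 to 16, 26.9 and 16.7 (-2.43 ± 0.23 (SE), adjusted p = 7.95e-05). VWF, the von Willebrand factor, was at 25.6, 18.6 and 25.7 in the juvenile, 8.86, 10.7 and 5.13 in cattle–yak and 49.5, 48 and 31.4 in the adult, so that cattle–yak was below both, but with library size scaling it was no longer called against the juvenile. Among 24 tested macrophage genes 18 were lower and 1, CD14, was higher, or 2 with library size scaling. CSF1R, the receptor for the macrophage growth factor, was at 122, 102 and 102 in the juvenile and 32.2, 47.6 and 33.4 in cattle–yak (-1.54 ± 0.18 (SE), adjusted p = 0.000224, not called with library size scaling), and CD68, a lysosomal marker of these cells, was at 16.7, 10.1 and 13.1 in the juvenile and 3.73, 4.36 and 2.7 in cattle–yak (-1.90 ± 0.27 (SE), adjusted p = 0.000546). The integrin gene ITGAM had a log2 fold change of -3.19. Of 19 lymphocyte and mast cell genes 14 were lower and none higher, among them PTPRC, the CD45 phosphatase (-2.36), and CD3G of the T cell receptor (-2.62). The summed levels in cattle–yak were 113 to 152 for endothelium, 601 to 838 for macrophages and 156 to 211 for lymphocytes, against 417 to 681, 1598 to 2565 and 470.4 to 579 in the juvenile. Yak of 4 years were at 123 to 162, 513 to 868 and 171 to 214. The part of these cell types in other lower genes was not tested.

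Genes of interferon and complement were mostly lower or not called. Of 30 genes of the interferon response and antigen presentation 13 were lower and 2, IFI6 and TRIM21, higher, and library size scaling left 8 lower. HLA-DRA, a class II chain, was at 357, 446 and 729 in the juvenile and 121, 185 and 185 in cattle–yak (-1.66 ± 0.29 (SE), adjusted p = 0.00169), with CD74, its chaperone, at a log2 fold change of -1.71. In the complement and coagulation list 17 of 31 genes were lower and 2 higher. C4A, the complement component cleaved by C1S, fell from 6122, 4065 and 5342 to 543, 628 and 1000.0 (-2.86 ± 0.29 (SE), adjusted p = 0.000109), C1S itself had a log2 fold change of -1.73 and the C1q chain gene C1QA one of -1.96. C3, the central component, was not called (0.36). MASP1, the serine protease of the lectin pathway, rose from 2.66, 4.8 and 2.7 to 68.7, 91.1 and 41.8 (4.27 ± 0.37 (SE), adjusted p = 4.9e-05), above every yak library of any age.

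Matrix genes were mostly lower. Basement membrane genes had 28 of 35 members lower and 3 higher, with the lowest median log2 fold change of the 32 lists at -2.41. COL4A1 and COL4A2 encode the chains of the ubiquitous type IV collagen network. COL4A1 was at 9314, 6034 and 4829 normalised CPM in yak of 6 months, 233, 335 and 263 in cattle–yak and 80.4, 97.1 and 79.1 in yak of 4 years. Its log2 fold change was -4.62 ± 0.32 (SE), adjusted p = 2e-05 against the juvenile and 1.68 against the adult, so cattle–yak lay between the yak ages with no overlap. COL4A2 and COL4A6, a chain of specialised membranes, had log2 fold changes of -5.17 and -5.22. LAMA2, a laminin alpha chain, was at 619, 449.7 and 554 in the juvenile and 51.5, 86.7 and 63.4 in cattle–yak (-3.03 ± 0.23 (SE), adjusted p = 3.16e-05). The higher members included LAMA3, a laminin chain, and ITGB4, an integrin chain of epithelial hemidesmosomes. The summed list was at 25413 to 44601 in the juvenile, 2854 to 4003 in cattle–yak and 1582 to 1891 in the adult.

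Fibrillar collagens and other interstitial matrix genes had 31 of 45 members lower and 5 higher, with a median of -1.76. COL1A1, the main chain of type I collagen, was at 1439, 1214 and 1459.5 normalised CPM in the juvenile, 310.3, 575 and 406 in cattle–yak and 69.2, 69.5 and 67.7 in the adult, with a log2 fold change of -1.69 ± 0.24 (SE), adjusted p = 0.000561. COL3A1, the type III chain, changed likewise (-1.998 ± 0.21 (SE), adjusted p = 0.000134). SPARC, a collagen-binding protein and one of the genes with most counts in the juvenile, was at 92622, 48742 and 47391 there and at 8299.8, 9105 and 8434 in cattle–yak (-2.88 ± 0.35 (SE), adjusted p = 0.000236). SPARC alone took 3.89% to 6.46% of all counts in juvenile libraries and 0.927% to 1.02% in cattle–yak. LUM, the proteoglycan lumican, had the largest decrease among abundant members, from 991, 546 and 564 to 7.42, 9.04 and 7.41 (-6.48 ± 0.31 (SE), adjusted p = 4.02e-06). The higher members were VCAN, a large proteoglycan (1.18), CCN2, the connective tissue growth factor (2.28), ASPN, EFEMP1 and MFAP5. Against yak of 4 years, 20 of 45 members were higher in cattle–yak and 2 were lower.

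Of 31 tested proteases and inhibitors 19 were lower, 5 higher and 7 not called. TIMP2, an inhibitor of matrix metalloproteinases, was at 68968, 49475 and 43611 normalised CPM in the juvenile and 8044, 9388 and 8799 in cattle–yak (-2.64 ± 0.28 (SE), adjusted p = 0.000138). TIMP2 accounted for 3.58% to 4.81% of juvenile counts and 0.899% to 1.05% of cattle–yak counts. MMP2, a gelatinase, fell from 438, 316 and 366 to 45, 75.8 and 42.2 (-2.80 ± 0.26 (SE), adjusted p = 7.27e-05). MMP16, a membrane-bound metalloproteinase, had a log2 fold change of -4.39, TIMP1 one of -2.19 and MMP15 one of 1.28.

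**Figure D4:**
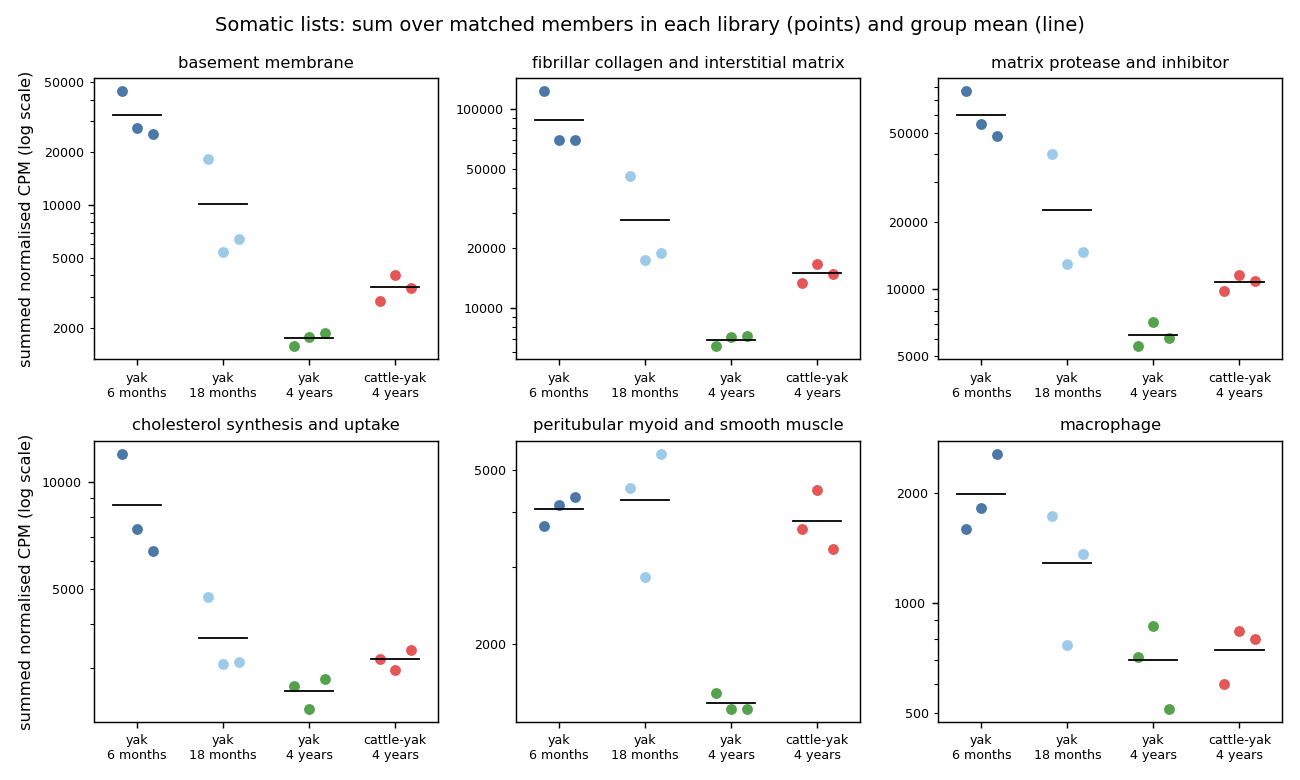
Summed normalised CPM (log scale) of the matched members of 6 somatic lists in each of the 12 libraries, with points for libraries and a line for the group mean. Basement membrane genes fall from 25413 to 44601 in yak of 6 months to 2854 to 4003 in cattle–yak, against 1582 to 1891 in yak of 4 years, while the myoid list of cattle–yak, at 3306 to 4506, overlaps that of the juvenile and lies above the adult yak.

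Growth factor lists had more members lower than higher. In the IGF list 11 of 19 tested genes were lower and 2 higher. IGFBP3, a carrier of IGFs in the extracellular space, was at 258, 267 and 317 normalised CPM in the juvenile, 2.89, 3.71 and 2.56 in cattle–yak and 8.84, 4.61 and 3.57 in the adult (-6.54 ± 0.22 (SE), adjusted p = 1.27e-06). IGFBP2, another carrier, moved the opposite way, from 238, 163 and 116 to 1011, 1312 and 1209.9 (2.76 ± 0.27 (SE), adjusted p = 9.58e-05), and exceeded the adult yak at 376, 553 and 392. IGFBP7 had a log2 fold change of -2.74. IGF1, the ligand, was at 29, 26.9 and 23.7 in the juvenile and 25.5, 39 and 19.6 in cattle–yak and was not called (0.06 ± 0.24 (SE), adjusted p = 0.84). Its sign turned without juvenile replicate 3 or cattle–yak replicate 2. It was higher in cattle–yak than in the adult yak (1.69, adjusted p = 0.000555). The receptor gene IGF1R was at 430.4, 319 and 248 in the juvenile and 151, 177 and 182 in cattle–yak and just missed the fold threshold (-0.98 ± 0.21 (SE), adjusted p = 0.00403). It passed it, at -1.15 to -1.01, when replicate 2 or 3 of either group was left out.

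The TGF-beta, BMP and activin list had 21 of 42 tested members lower and 4 higher, with a median of -1.04. The BMP antagonist CHRD fell most among abundant members, from 161, 96.2 and 74.3 to 0.663, 0.951 and 1.19 (-6.91 ± 0.38 (SE), adjusted p = 7.64e-06), and TGFB1, a ligand, rose from 3.88, 4.84 and 6.43 to 10.3, 13.4 and 13 (1.25 ± 0.24 (SE), adjusted p = 0.00257). Among 20 tested genes that are imprinted or active in foetal growth 14 were lower and 3 higher, and 9 were lower with library size scaling. CDKN1C, an imprinted inhibitor of the cell cycle, was at 105, 113 and 88.4 in the juvenile and 12.6, 11.3 and 15.3 in cattle–yak (-2.99 ± 0.17 (SE), adjusted p = 7.73e-06), while DLK1, a non-canonical Notch ligand, had a log2 fold change of -1.74 and IGF2BP2, an mRNA-binding protein, one of -2.62. NNAT, the imprinted gene neuronatin, was at 32, 36.6 and 41.4 in the juvenile, 28.8, 45.6 and 29.8 in yak of 4 years and 6.89, 7.28 and 10.002 in cattle–yak. It was lower in the hybrid than at either yak age (-2.21 against the juvenile and -2.13 against the adult). The 3 higher members were IGF2BP1, IGF2BP3 and LIN28B, which bind RNA.

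Cell cycle and replication genes were higher in 23 of 46 cases and lower in 3, with a median of 1.05, and library size scaling gave 36 higher and 1 lower. TPX2, a spindle assembly factor, rose from 11.9, 21.3 and 29.3 normalised CPM to 165, 109 and 125 (2.65 ± 0.32 (SE), adjusted p = 0.000257). CDKN1A, the p21 inhibitor, rose from 7.88, 10.3 and 3.85 to 81.8, 103 and 104 (3.69 ± 0.33 (SE), adjusted p = 6.03e-05), above all 9 yak libraries. The lower members were CCND2, CCND3 and CDK6, which act in early G1, with CCND2 at 119, 134 and 150.0 in the juvenile and 23.9, 40.1 and 21 in cattle–yak (-2.27 ± 0.25 (SE), adjusted p = 0.000173). CDK1, the mitotic kinase, was not called (1.01 ± 0.41 (SE), adjusted p = 0.0647). It was called higher without juvenile replicate 3, at 1.46, and with DESeq2, library size scaling and FPKM.

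Genes of energy metabolism were called no more often than tested genes in general. Of 29 oxidative phosphorylation genes 4 were higher and 1 lower, shares under the background of 18.1% and 19.7%. The complex I subunit NDUFS1 was at 148, 197 and 226 in the juvenile and 497, 393 and 397 in cattle–yak (1.15 ± 0.20 (SE), adjusted p = 0.00135), and NDUFA10 had a log2 fold change of 1.06. Both fell just under the fold threshold, at 0.995 and 0.974, without juvenile replicate 1. COX7A1, a muscle-type subunit of cytochrome oxidase, was the lower member (-1.96). Library size scaling gave 9 higher (31.0%), near the 31.3% of all tested genes with that scaling. Among 23 genes of glycolysis and lactate transport 3 were higher and 4 lower, and library size scaling gave 5 higher. The glucose transporter gene SLC2A1 fell from 112, 82 and 68.9 to 22.4, 28.9 and 28.3 (-1.74 ± 0.20 (SE), adjusted p = 0.000196). HK2, the hexokinase of the outer mitochondrial membrane, was at 11.3, 12.3 and 14.7 in the juvenile and 309, 219.7 and 231 in cattle–yak (4.29 ± 0.20 (SE), adjusted p = 3.88e-06), and yak of 4 years were at 41.8, 49 and 47.3.

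HK2 belongs to a group of genes for which cattle–yak lay outside the range of yak at any age. This way of grouping and the genes named for it were chosen after their values were seen. Every cattle–yak library was at least 2-fold above each of the 9 yak libraries for 218 of 15571 tested genes (1.40%) and at least 2-fold below each for 120 genes (0.771%). Without replicate 2 of the 18-month yak, a choice made after seeing the data, these counts were 226 and 125. The yak were sampled at 3 ages only, and age and genotype are not separated by this count. Reads of cattle alleles were aligned to the yak genome, so a level of the hybrid also depends on how well such reads align, and this cannot be told apart here from a change in footprint. The study reports that footprint lengths peaked shorter in cattle–yak than in adult yak, and that a larger share of cattle–yak reads aligned. The part of these differences between libraries in the levels was not tested.

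Among the genes above all yak, DLD, the dihydrolipoamide dehydrogenase shared by the pyruvate and oxoglutarate complexes, was at 66.9, 86.5 and 104 normalised CPM in yak of 6 months, 98.6, 85.5 and 92.2 in yak of 4 years and 453, 431 and 412 in cattle–yak (2.31 ± 0.19 (SE), adjusted p = 3.85e-05 against the juvenile). CA5B, a mitochondrial carbonic anhydrase, was at 3.33, 6.83 and 5 in the juvenile, 37.5, 34.2 and 30.3 in the adult yak and 188, 186 and 182 in cattle–yak. AIFM1, a flavoprotein of the intermembrane space, rose by 2.13 on the log2 scale. PRPS2, which makes phosphoribosyl pyrophosphate for nucleotides, was at 29.7, 36.3 and 39.7 in the juvenile, 310, 271 and 257 in the adult yak and 1059, 1027 and 1068 in cattle–yak (4.88 ± 0.18 (SE), adjusted p = 2.14e-06 against the juvenile). Against the adult yak its log2 fold change was 1.90. ALOX12, a lipoxygenase of arachidonic acid, was at 3.55, 3.17 and 1.15 in the juvenile, 18.3, 23.2 and 12.8 in the adult yak and 139.7, 125 and 121 in cattle–yak (5.61 ± 0.37 (SE), adjusted p = 1.55e-05 against the juvenile). Its log2 fold change against the adult yak was 2.82. EPAS1, the hypoxia-inducible factor 2 alpha, was at 7.27, 10.6 and 11.6 in the juvenile, 37.4, 36.8 and 24.3 in the adult yak and 168, 152 and 137 in the hybrid (3.93 ± 0.21 (SE), adjusted p = 6.69e-06). PLCD1, a phospholipase C, was at 13.3, 15.8 and 14.7 in the juvenile, 16.9, 15.9 and 15.6 in the adult yak and 131, 157 and 123 in cattle–yak (3.21 ± 0.16 (SE), adjusted p = 4.69e-06). PTH1R, the receptor for parathyroid hormone, MOCS1 of molybdenum cofactor synthesis, CA3, a cytosolic carbonic anhydrase, and FKBP5, a steroid receptor cochaperone, had log2 fold changes of 2.60, 2.86, 3.19 and 2.73 against the juvenile.

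Among the genes below all yak, SLC22A16 was at 127, 76.8 and 67.3 in the juvenile, 3.93, 2.48 and 3.89 in the adult and 0.306, 0.371 and 0.513 in cattle–yak. FBN2, a fibrillin of elastic microfibrils, was at 203, 124 and 145 in the juvenile, 80.6, 78.1 and 95.2 in the adult yak and 21.5, 32.6 and 20.8 in cattle–yak (-2.67 ± 0.25 (SE), adjusted p = 7.25e-05 against the juvenile). ITPRIPL1, a membrane protein, was at 56.2, 36.7 and 30.3 in the juvenile, 40.3, 39.9 and 35.9 in the adult yak and 6.04, 6.35 and 6.74 in cattle–yak, with no yak library under 23.3 (-2.70 ± 0.24 (SE), adjusted p = 5.34e-05 against the juvenile). The kinesin gene KIF5C was at 49.7, 47.4 and 51.7 in the juvenile, 329.8, 268 and 280.3 in the adult yak and 7.59, 5.75 and 5.62 in cattle–yak, and GPSM2, a spindle orientation factor, had a log2 fold change of -1.93.

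**Figure D5:**
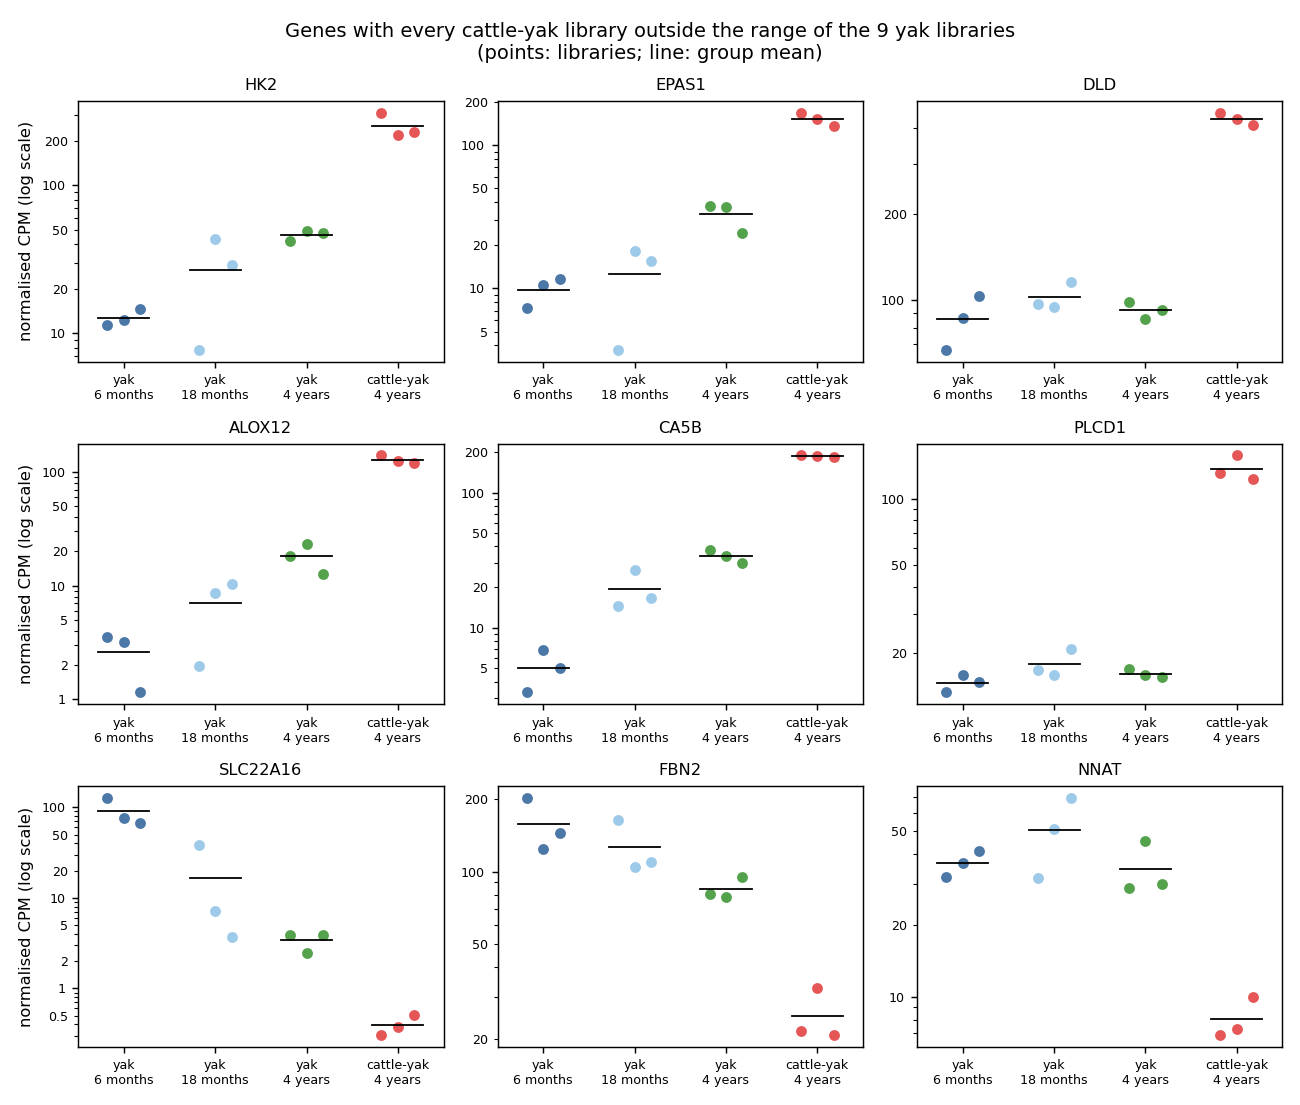
Normalised CPM (log scale) of 9 genes in each of the 12 libraries, with points for libraries and a line for the group mean. For HK2, EPAS1, DLD, ALOX12, CA5B and PLCD1 all cattle–yak libraries lie above all yak libraries, and for SLC22A16, FBN2 and NNAT below them, with FBN2 at 20.8 to 32.6 in cattle–yak and no lower than 78.1 in yak.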

How the data were processed

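Ribo-seq counts of 12 testis libraries were used. The authors cleaned the reads (fastp), discarded those matching rRNA (Bowtie2) or other small RNAs (BLAST), kept reads of footprint length, aligned them with STAR to the yak genome (BosGru 3.0) and counted them on the ORF of each gene with RSEM. The deposited counts are whole numbers without normalisation, and the deposited FPKM divides them by gene length and library total. Columns with the fold changes and p-values of the authors' own comparisons and their tables of group FPKM were not used. The tables were joined on the gene identifier, and the 12 library columns (counts or FPKM) that occur in more than 1 table were identical. Symbols are those of the tables (13662 of 20965 genes). A further 85 genes were named from a description that occurs once. Listed genes without a match were not analysed here.

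The test was edgeR's quasi-likelihood test (R 4.3.3, edgeR 4.0.16), after filterByExpr and TMM scaling, with Benjamini-Hochberg adjustment over all tested genes. Only the 6 libraries compared entered a fit. The SE is the size of the log2 fold change over the square root of F. On simulated data of the same depth the test recovered a minority of 2-fold and most 4-fold changes. Far fewer genes were changed there than were called here, and recovery was scored on adjusted p alone. The simulation therefore does not give the recovery of the call rule in these data. A gene that was not called is not shown to be unchanged. Each library is 1 animal, so animal and library preparation were not separated, and intervals or p-values cover the spread between these animals only. The chi-square per degree of freedom was 52.0 to 190 between juvenile libraries and 36.3 to 67.3 between cattle–yak libraries, so none was a copy of another. The 6 libraries compared had totals of 25816963 counts or more, at which 3 counts equal 0.116 CPM or less before TMM scaling. Totals were smaller in yak of 4 years, at 16304058 to 17862516.

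Genes and 32 lists (938 of 1199 genes matched) were chosen with earlier results of these data known. The rule for named genes took the 2 lead genes of each list and genes that the study names. It also took up to 3 called members per list with the largest log2 fold changes each way among abundant genes. Abundant means a mean log2 CPM above the median of tested genes. Added to these were the 8 abundant called genes with a symbol, no overlap between the groups and the largest change each way. The 6 most abundant called genes with a symbol each way completed the rule. Members named to account for a small count, and genes outside the yak range, were chosen after their values were seen. The red cell and rete testis lists had 2 and 8 tested members, of which 1 and 3 were higher and 0 and 4 lower. Alternatives were DESeq2 1.42.0, library size, RLE or upper quartile scaling, no filter, all 12 libraries in 1 fit, limma 3.58.1 on log2(FPKM + 1) or log2(FPKM + 0.1), a block for the replicate number, and leaving out each library in turn. Python 3.11.15, pandas 2.3.3 and matplotlib 3.10.9 made summaries and figures. A few genes are not reported here. No sequences are printed.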

Additional observations from a re-analysis of the deposited data

How the results depend on the processing

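Of 139 tested genes named with values 138 kept their direction under every alternative, and 118 also kept their side of the threshold. The exception was IGF1, from -0.25 (without cattle–yak replicate 2) and -0.01 (without juvenile replicate 3) up to 0.27 over the libraries left out. Leaving out each library gave 2632 to 2864 genes higher and 2840 to 3109 lower in cattle–yak than in yak of 6 months, 2673 to 3121 and 4126 to 4438 against yak of 4 years, and 4818 to 5125 and 3903 to 4000 for yak of 4 years against 6 months. Library size scaling gave 4867 higher and 1875 lower genes in the main comparison, log2(FPKM + 0.1) gave 4982 and 1887, and log2(FPKM + 1) gave 3859 and 1356. These settings use library totals alone. The cause was not tested. For yak of 4 years against 6 months they gave 2493, 2474 and 2051 genes lower in place of 3985. DESeq2 (2948 and 3091), RLE (2901 and 3031), upper quartile (2701 and 3210), no filter (3011 and 3137) and all 12 libraries in 1 fit (2527 and 2904) stayed within 1.5 times the main counts. The fit of all 12 libraries lost the calls of ACR, SPATA16, DPY19L2, ODF2, DNAH1, PDLIM3 and CALR3. More than 1.5-fold moves among the 64 list counts numbered 22 with library size scaling, 29 with log2(FPKM + 1), 23 with log2(FPKM + 0.1) and 9 with all 12 libraries in 1 fit.

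With the replicate number as a block 2701 genes were higher and 2898 lower. The numbers gave no sign of a pairing: deviations of same-numbered libraries correlated at -0.158, -0.127 and -0.0446, and no cattle–yak library correlated best with its own number. Deviations from a group mean offset each other within the group, so with so few libraries these values cannot settle whether animals were paired. The block changed the call of no named gene, and moved 3 of 64 list counts by more than 1.5 times.

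Genes with low counts limit the spermatid lists, where 16 of 37 and 21 of 33 matched members could not be tested. In a juvenile library 3 counts equal 0.0807 to 0.116 CPM before TMM scaling. Near-identical copies and cattle alleles on the yak genome were counted as deposited.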

Other observations

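Chaperone, antioxidant and lysosomal genes were also listed. Of 41 tested chaperone genes 6 were higher and 6 lower, and library size scaling gave 16 and 2. The share was 14.6% each way, under the background of 18.1% and 19.7%. The higher ones included testis forms: HSPA2, a heat shock protein of spermatocytes, was at 49.8, 54.4 and 44.2 normalised CPM in yak of 6 months and 256, 142 and 161 in cattle–yak (1.90 ± 0.23 (SE), adjusted p = 0.000257), and CALR3, a calreticulin of spermatids, at 4.22, 3.69 and 3.37 in the juvenile and 71.7, 33.5 and 34.3 in cattle–yak. The lower ones were mainly chaperones of the endoplasmic reticulum, such as HSP90B1 (-1.56, not called with library size scaling) and PDIA3 (-1.88). Among 32 antioxidant genes 3 were higher and 9 lower, and library size scaling gave 8 higher. SOD3, the extracellular superoxide dismutase, fell from 15521, 10039.6 and 5772 to 369, 498 and 424 (-4.62 ± 0.40 (SE), adjusted p = 4.95e-05), and GPX1, the cytosolic glutathione peroxidase, from 726, 618 and 565 to 91.3, 110.3 and 85.4 (-2.75 ± 0.17 (SE), adjusted p = 1.33e-05), with the adult yak at 155, 175 and 115. The cytosolic SOD1 (0.50) and GPX4 (0.61) did not pass the fold threshold, but passed it with library size scaling. Of 34 lysosomal genes 16 were lower and 1 higher, and library size scaling gave 6 lower and 4 higher. The proteases LGMN and CTSC had log2 fold changes of -3.17 and -2.68.

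Of 25 ribosomal protein genes with a symbol 2 were lower, RPS4X (-1.76) and RPL12 (-1.26, not called with library size scaling), and none higher. The list's median of -0.25 turned to 0.31 with library size scaling, while that of all tested genes moved from -0.02 to 0.52. Immediate early genes were higher in 5 and lower in 6 of 25 cases, and 1 was lower with library size scaling. Genes without a symbol, chosen here after their values were seen, also lay outside the yak range. ENSBGRG00000018450 had 1.2% to 2.82% of all counts in yak libraries of any age and 0.00546% to 0.00812% in cattle–yak. ENSBGRG00000015704, an uncharacterised protein, had 1.0% to 7.15% and 0.163% to 0.189%, with the lowest yak value in juvenile replicate 1. In the other direction, ENSBGRG00000016497, a row described like elongation factor 1-alpha 1, was at 178 to 222 normalised CPM in cattle–yak and at most 2.58 in yak, and ENSBGRG00000013984, described as acidic ribosomal protein, at 32.9 to 67 and at most 0.333. Genes of these families have near-identical copies, so their counts are uncertain.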
